A study of Mus musculus with 6 samples.

Results

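The genes described here encode the mitochondrial respiratory chain and ATP synthase, and they were followed in cells sorted as macrophages from mouse heart grafts. They were chosen by symbol alone: Nduf, Sdh, Uqcr, Cox4 to Cox8 and Atp5 genes with Cyc1 and Cycs, without the assembly factors named Ndufaf and Sdhaf. Of the 22180 genes measured through probe sets with a single symbol, 83 met this rule, each represented by its brightest probe set. They comprised 32 genes of complex I, 4 of complex II, 9 of complex III, cytochrome c, 19 of complex IV and 18 of ATP synthase, and 2 of them, Uqcrh-ps1 and Atp5c1-ps, are pseudogenes. A further 9 symbols of these families, Cox6c, Ndufb2 and Uqcr10 among them, lay only on probe sets shared by several symbols, and they and the 13 mitochondrially encoded subunits were not analysed here.

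Electrons enter the chain at complex I from NADH and at complex II from succinate, pass through coenzyme Q to complex III, and travel on cytochrome c to complex IV, where oxygen is reduced. Complexes I, III and IV pump protons, and ATP synthase uses the returning protons to make ATP. In macrophages the balance between this pathway and glycolysis differs between activation states, succinate oxidation at complex II feeds inflammatory signals, and mTOR is known as a regulator of mitochondrial gene expression and of the translation of nuclear-encoded subunits.

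Cells were isolated by sorting for macrophages on day 6 from BALB/c hearts grafted into fully allogeneic C57BL/6 mice. On days 0, 2 and 5 the recipients of the 3 mTORi-HDL samples had been given 5 mg/kg of this nanobiologic, an mTOR inhibitor carried in high-density lipoprotein. Recipients of the 3 untreated samples received nothing and rejected their grafts. There was no group given the lipoprotein alone, so inhibitor and carrier cannot be told apart. Neither age nor sort markers nor pooling of animals is stated, so the p-values measure the spread between these samples, which may be technical. Each sample, amplified from 15 ng of RNA, gave 1 Affymetrix array, and all values below are log2 RMA levels or differences of such levels, mTORi-HDL minus untreated.

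The array of mTORi-HDL replicate 1 stood apart. The SD over all its probe sets was 1.68 and that of each of the other 5 lay between 2.04 and 2.09. It correlated with those 5 at r = 0.708 to 0.741, and they with one another at 0.892 to 0.912. Bright genes read lower on it: genes in the brightest 25% by mean signal had a median of -1.18 relative to their untreated mean on this array, beside 0.01 and -0.05 on mTORi-HDL 2 and 3. Of the 83 members, 67 lay in that 25%, so the main results are given with and without this array.

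The sorted cells carried transcripts of other cell types, in amounts that differed between groups. T cell markers (13 of 16 measured) had a mean level of 6.83 to 8.52 on mTORi-HDL arrays and 9.43 to 9.63 on untreated arrays, and all 13 were lower. NK cell markers (9 of 9 measured) averaged 7.58 to 8.75 on mTORi-HDL arrays and 8.69 to 9.36 on untreated arrays. Of these, 8 of 9 were lower, or 7 of 9 without mTORi-HDL 1. Macrophage markers (14 of 15 measured) averaged 6.52 to 8.13 on mTORi-HDL arrays and 6.52 to 6.82 on untreated arrays. Of these, 12 of 14 were higher, or 13 of 14 without mTORi-HDL 1, on which Csf1r read 5.00 against 7.54 to 8.19 on the untreated arrays. On all 6 arrays the T cell and NK cell lists read above the macrophage list, though levels of different probe sets do not measure cell numbers. Cell cycle markers averaged 5.24 to 6.35 on mTORi-HDL arrays and 7.46 to 7.85 on untreated arrays. In such bulk samples fewer cells of a type and less RNA per cell cannot be told apart, and the part of these cells in the results on the respiratory chain was not tested.

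Of the 83 members, 0 reached an adjusted p under 0.05 in limma's fits, over 6 arrays or without mTORi-HDL 1, and 0% of all genes did. Over 6 arrays 18 members were lower and 5 higher by more than 0.5, beside 3399 and 2516 of all 22180 genes. These numbers were 10 and 4 members without mTORi-HDL 1, beside 2069 and 1879 of all genes. The smallest adjusted p of a member in limma's fits was 0.890 over 6 arrays and 0.646 without mTORi-HDL 1. Without that array the median log2 fold change was -0.25 in complex I, -0.14 in complex II, -0.27 in complex III, -0.09 in complex IV and -0.07 in ATP synthase, beside -0.03 over all genes, and Cycs was at 0.25. Of the members 57 were then lower, 68.7%, where 53.4% of all genes and 52.5% of the brightest 25% were. At an unadjusted p under 0.05 limma found 4 members lower and 0 higher without mTORi-HDL 1, against 3.51% and 3.47% of all genes (6.97% in both directions). Over 6 arrays it found 2 lower and 0 higher, against 3.07% and 1.57% (4.64% in both directions).

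Over all 6 arrays the medians were -0.28 in complex I, -0.28 in complex II, -0.33 in complex III, -0.05 in complex IV and -0.14 in ATP synthase, but cyclic loess turned all 5 above 0, to between 0.07 and 0.31, and quantile normalization moved complexes I, II and III to 0.0019, 0.14 and -0.0097. With 56 of 83 members lower, 67.5%, they stood between all genes at 41.8% and the brightest 25% at 73.9%, and only 30 were lower after cyclic loess. The direction over 6 arrays therefore depended on the normalization. Without that array every normalization tried left the 5 medians below 0, complex I between -0.26 and -0.21 and complex III between -0.31 and -0.24. Leaving out mTORi-HDL 2 as well took complex II to 0.03, and leaving out mTORi-HDL 3 or untreated 2 as well took ATP synthase to 0.0027 or 0.0076, while the medians of complexes I, III and IV stayed below 0 with any further array left out.

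**Figure D1:**
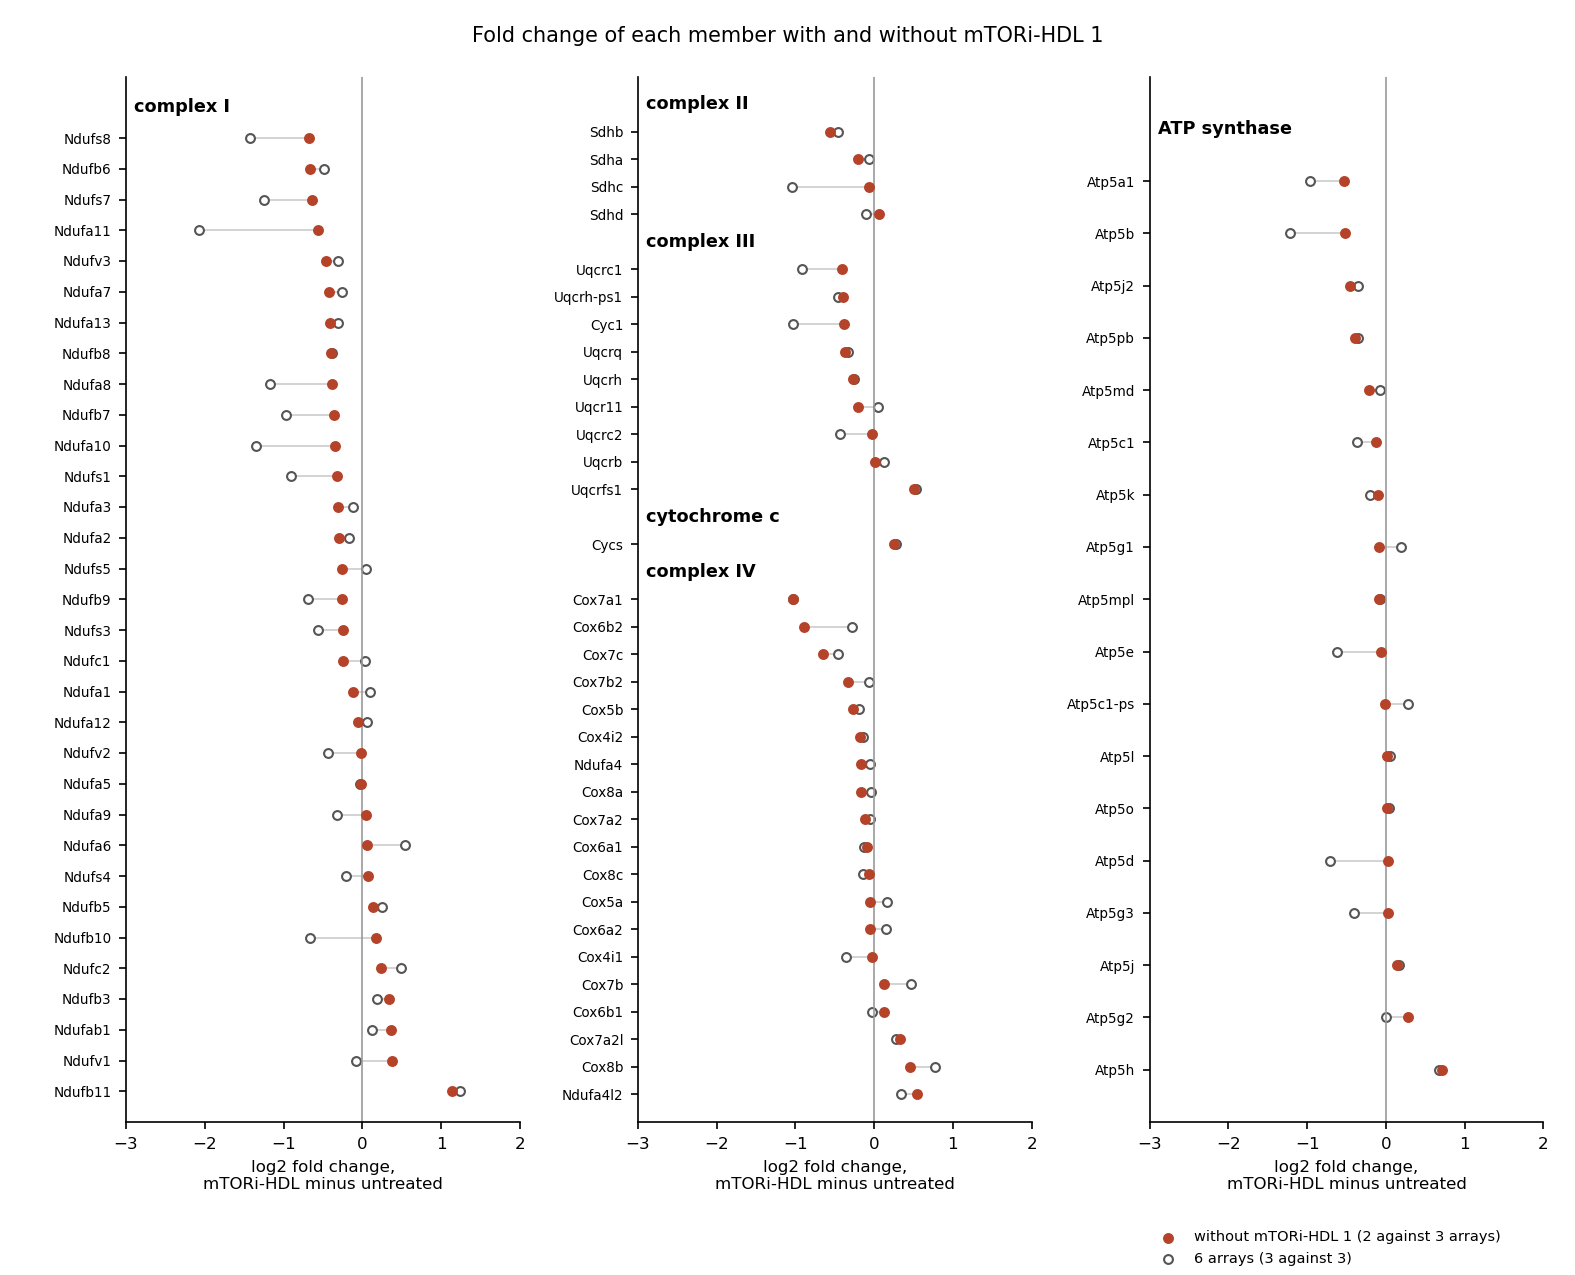
Log2 fold change (mTORi-HDL minus untreated) of each of the 83 genes, by complex, in the order of the values without mTORi-HDL 1. Filled points leave out mTORi-HDL 1 (2 against 3 arrays) and open points use 6 arrays (3 against 3). Ndufa11 moves furthest between the fits, from an open point at -2.07 to a filled point at -0.57, while Cox7a1 stays at -1.03, and cyclic loess turns the 6-array median of each complex above 0.

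Per array, the median member of complex I lay 0.22, 0.14 and 0.16 below its untreated mean on mTORi-HDL 1, 2 and 3, with medians of 0.01, 0.08 and -0.07 on the untreated arrays. In complex III the medians were -0.23, -0.20 and -0.24 on mTORi-HDL arrays and -0.07, 0.03 and 0.11 on untreated arrays. In both complexes the treated arrays lay below all untreated ones by this measure, in deviations that average 0 over the untreated arrays by construction. Of their genes, 30 of 32 in complex I and 8 of 9 in complex III lay at or above the 75th percentile of signal. All genes at or above it had medians of -1.18, 0.01 and -0.05 on mTORi-HDL 1, 2 and 3. Both complexes thus lay above that background on mTORi-HDL 1 and below it on mTORi-HDL 2 and 3. With all arrays kept, cyclic loess turned their median fold changes to 0.22 and 0.21. By mean level complex I overlapped (7.13, 7.85 and 7.64 on mTORi-HDL arrays, 7.86, 7.98 and 7.81 on untreated arrays) and complex III did not (6.81, 7.24 and 7.17, against 7.29, 7.38 and 7.46). Complexes II and IV and ATP synthase overlapped between groups in their array medians. On both mTORi-HDL 2 and mTORi-HDL 3, 41 of 83 members lay below their untreated mean, 49.4% where 34.8% of all genes did, and 12 lay above it on both, 14.5% against 27.5%.

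**Figure D2:**
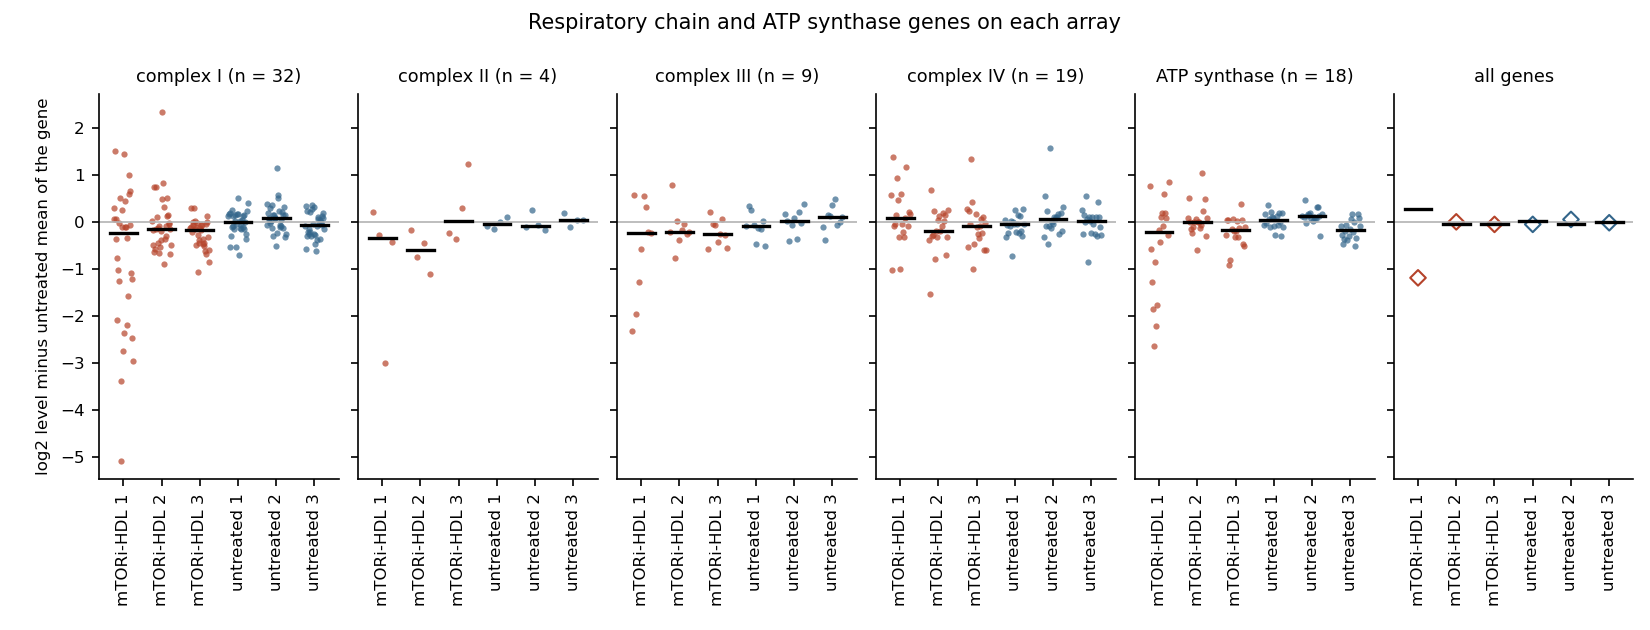
Deviation of each gene from its own untreated mean (log2) on the 6 arrays, 1 point per gene, with the median of each array as a bar. The last panel shows the median over all genes as a bar and over the brightest 25% of genes as a diamond. On mTORi-HDL 1 the points of complex I spread down to -5.08 and the diamond lies at -1.18. The diamonds of the other 5 arrays stay close to 0, while single points of complex I reach 2.34 on mTORi-HDL 2.

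Between the 3 arrays of each group there was no overlap for 15 members over 6 arrays. The 11 lower ones were Ndufs7, Ndufs8, Ndufa13, Ndufb7, Ndufb8, Sdhb, Cyc1, Uqcrh, Cox7a1, Atp5b and Atp5j2. As a share of the 83 members they were close to the 13.1% of the brightest 25%, where 67 of the members lay. Over all genes 5.53% were lower without overlap. The 4 higher ones were Cycs, Cox7a2l, Cox8b and Atp5h, where 5.37% of all genes and 2.83% of the brightest 25% were higher without overlap. Without mTORi-HDL 1, 18 members were lower without overlap, beside 12.5% of all genes and 15.4% of the brightest 25%, and 4 were higher, beside 9.75% and 13.3%.

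Over 6 arrays the smallest p-values in complex I were those of Ndufs7 and Ndufs8, in the module that passes electrons to coenzyme Q. They encode the iron-sulfur subunits that carry the last clusters before the quinone. Ndufs7 read 4.66, 6.43 and 6.51 on mTORi-HDL arrays, against 7.34, 6.79 and 7.20 on untreated arrays. All treated values lay below all untreated ones, with mTORi-HDL 1 far below the rest. The log2 fold change was -1.25 ± 0.52 (SE, limma unadjusted p = 0.0446, adjusted p = 0.890) over 6 arrays and -0.64 ± 0.25 without mTORi-HDL 1 (unadjusted p = 0.0371, adjusted p = 0.680). Ndufs8 read 4.71, 7.17 and 6.82 on mTORi-HDL arrays, against 8.07, 7.41 and 7.51 on untreated arrays. Its groups were likewise apart, and its log2 fold change of -1.43 over 6 arrays shrank to -0.67 without mTORi-HDL 1. Ndufs3, another core subunit of the module, was at -0.56 and -0.24 in the 2 fits, and the accessory subunits Ndufa5 and Ndufa9 were at -0.03 and -0.32 over 6 arrays and at -0.02 and 0.05 without mTORi-HDL 1.

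The NADH-oxidising module had a median of -0.19 over 6 arrays (0.26 after cyclic loess) and -0.04 without mTORi-HDL 1 over its 10 measured genes. Ndufv1, the flavoprotein that accepts electrons from NADH, read 6.08, 7.84 and 7.12 on mTORi-HDL arrays and 7.22, 7.11 and 6.95 on untreated arrays. It was thus above the untreated mean on mTORi-HDL 2 and 3 and below it on mTORi-HDL 1. Its iron-sulfur partner Ndufv2 was at -0.43 over 6 arrays and -0.02 without mTORi-HDL 1. Ndufs1, which holds further iron-sulfur clusters, was at -0.90 and -0.32, Ndufs4, an accessory subunit whose loss in mice causes a brain disease like Leigh syndrome, at -0.20 and 0.08, and Ndufab1, the mitochondrial acyl carrier protein, at 0.13 and 0.37. Ndufv3 was lower without overlap once mTORi-HDL 1 was left out, at -0.46.

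Among the 17 genes of the membrane arm, Ndufb6, an accessory subunit, read 6.81, 6.04 and 6.47 on mTORi-HDL arrays, against 6.78, 7.15 and 6.83 on untreated arrays. Here mTORi-HDL 1 lay within the untreated range and the other treated arrays lay below it. The log2 fold change was -0.67 ± 0.25 without mTORi-HDL 1 (SE, limma unadjusted p = 0.0323, adjusted p = 0.646) and -0.48 over 6 arrays. Ndufb8 had a narrow spread: 6.87, 6.90 and 6.69 on mTORi-HDL arrays and 7.25, 7.09 and 7.27 on untreated arrays, a log2 fold change of -0.38 over 6 arrays and -0.40 without mTORi-HDL 1. Ndufa13, also known as GRIM-19, read 8.78, 8.35 and 8.61 on mTORi-HDL arrays and 8.84, 8.97 and 8.84 on untreated arrays. Neither of these 2 genes overlapped between groups, and neither rested on mTORi-HDL 1.

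In the same arm the fold changes of Ndufa11 and Ndufa10 rested largely on mTORi-HDL 1. Ndufa11, an accessory subunit at the contact with complex III, read 4.24, 9.25 and 8.27 on mTORi-HDL arrays, against 8.81, 9.47 and 9.69 on untreated arrays. Its second, dimmer probe set read 6.28, 5.73 and 5.08 on mTORi-HDL arrays and 5.74, 5.52 and 5.34 on untreated arrays, with mTORi-HDL 1 the highest. Ndufa10 had a log2 fold change of -1.36 over 6 arrays and -0.34 without mTORi-HDL 1. Ndufb11 had the highest fold change of all members, 1.24 ± 0.71 (SE) over 6 arrays and 1.14 without mTORi-HDL 1. Its levels were 6.69, 7.58 and 5.17 on mTORi-HDL arrays and 4.54, 6.40 and 4.77 on untreated arrays, so the groups overlapped and each spread over more than the difference. Ndufa1, a small subunit needed for assembly, was at 0.10 and -0.11 in the 2 fits.

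**Figure D3:**
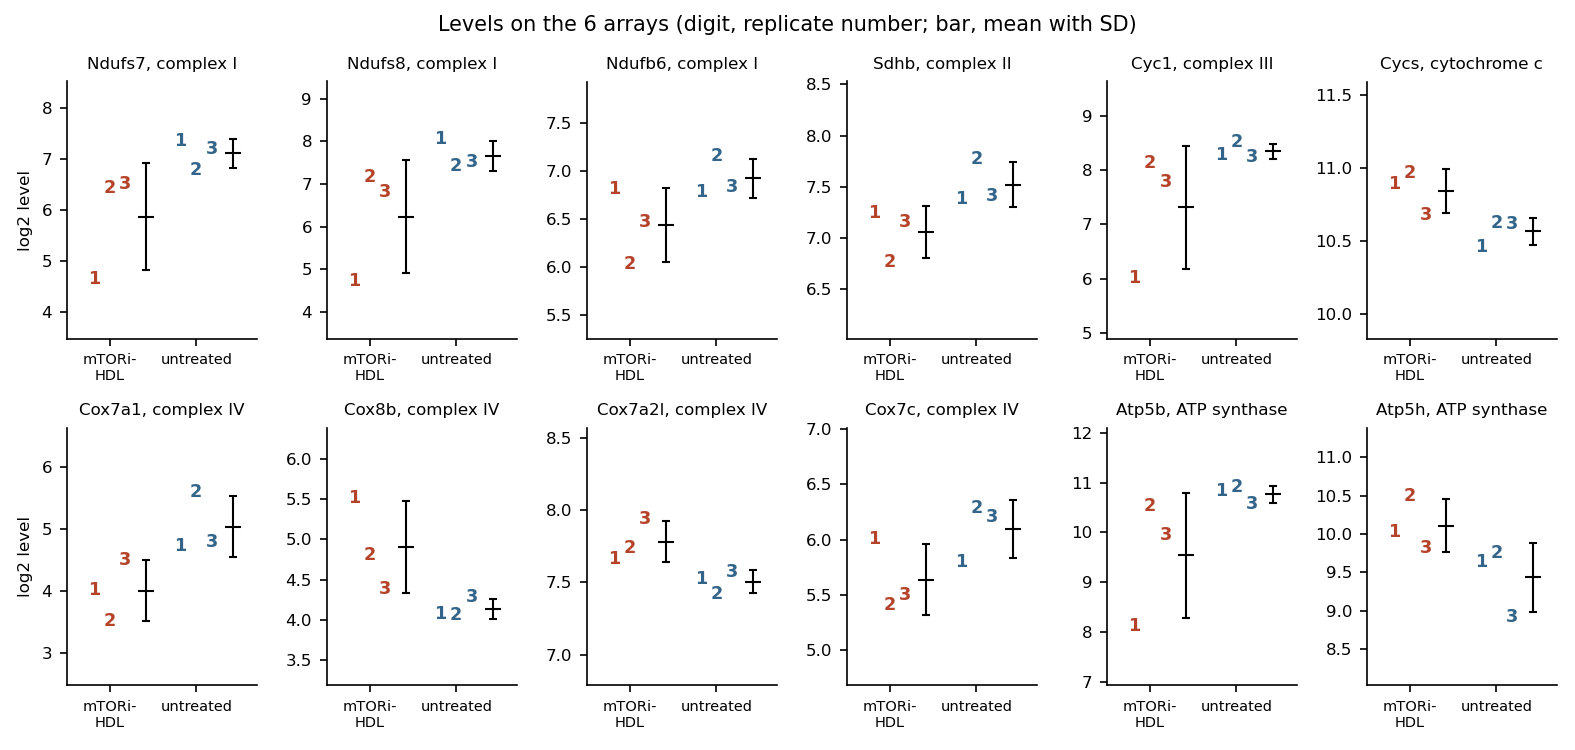
Log2 levels of 12 genes on the 6 arrays, with the digit giving the replicate number and the bar the mean ± SD of 3 arrays, mTORi-HDL left of untreated. Axis ranges differ between panels. The treated values of Ndufs7, Ndufs8, Cyc1 and Atp5b include 1 far below the others, from mTORi-HDL 1, whereas those of Cox7a1, Cox7a2l and Cycs lie closer together.

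Complex II, which oxidises succinate, was represented by all 4 of its subunits. Sdhb, the iron-sulfur subunit, read 7.25, 6.77 and 7.16 on mTORi-HDL arrays, against 7.38, 7.78 and 7.41 on untreated arrays. The groups did not overlap, and the log2 fold change was -0.46 ± 0.27 (SE) over 6 arrays (0.16 after cyclic loess) and -0.56 ± 0.25 without mTORi-HDL 1 (limma, adjusted p = 0.737). Sdha, the flavoprotein that binds succinate, read 8.22, 7.83 and 7.76 on mTORi-HDL arrays, against 7.91, 7.90 and 8.19 on untreated arrays. Only the treated arrays 2 and 3 lay below the untreated range. The membrane anchors varied more between treated arrays: Sdhc read 3.22, 5.77 and 6.51 and Sdhd 6.27, 5.58 and 7.91 on mTORi-HDL arrays, against 6.15 to 6.26 and 6.53 to 6.80 on untreated arrays.

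In complex III, Cyc1, the cytochrome c1 that hands electrons to cytochrome c, read 6.02, 8.14 and 7.78 on mTORi-HDL arrays, against 8.27, 8.51 and 8.25 on untreated arrays. All treated values were below all untreated ones, and the log2 fold change of -1.03 over 6 arrays became -0.39 without mTORi-HDL 1. Uqcrh, the hinge protein that helps Cyc1 meet cytochrome c, read 9.23, 9.18 and 9.15 on mTORi-HDL arrays, against 9.45, 9.43 and 9.43 on untreated arrays. The difference of -0.25 exceeded the SDs of 0.04 and 0.01 of the 2 groups (n = 3 each), but limma, which draws variances together over all genes, gave an SE of 0.24 and an adjusted p of 0.890. The core proteins Uqcrc1 and Uqcrc2 were at -0.92 and -0.44 over 6 arrays and at -0.40 and -0.02 without mTORi-HDL 1. Uqcrfs1, the Rieske iron-sulfur protein, was the one catalytic subunit above its untreated mean, at 0.53 over 6 arrays and 0.51 without mTORi-HDL 1, with levels of 6.05, 6.27 and 5.71 on mTORi-HDL arrays and 5.83, 5.52 and 5.11 on untreated arrays.

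Cytochrome c itself ran the other way. Cycs, which also activates caspases when released from mitochondria, read 10.89, 10.96 and 10.68 on mTORi-HDL arrays, against 10.46, 10.62 and 10.62 on untreated arrays. The groups did not overlap, and the log2 fold change was 0.28 ± 0.25 over 6 arrays and 0.25 ± 0.22 without mTORi-HDL 1 (SE, limma adjusted p = 0.890 and 0.898). Of its 5 probe sets 2 held identical values, at 0.72 over 6 arrays and 0.60 without mTORi-HDL 1, and the other 2 were at 0.19 and 0.30 over 6 arrays and at -0.11 and 0.21 without mTORi-HDL 1.

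In complex IV the 10 ubiquitous subunits had a median of -0.05 over 6 arrays, above 0 after cyclic loess like the complex as a whole, and -0.10 without mTORi-HDL 1. Cox4i1, Cox5a, Cox6a1, Cox6b1, Cox7a2, Cox8a and Ndufa4 lay between -0.17 and 0.13 without mTORi-HDL 1. Cox5b, the zinc-binding subunit, was at -0.27 without that array, its treated arrays 2 and 3 (8.55 and 8.40) below the untreated values of 8.71, 8.81 and 8.71. Its dimmer second probe set was at 0.18 over 6 arrays and -0.12 without mTORi-HDL 1. Cox7c, a small membrane subunit, read 6.01, 5.40 and 5.50 on mTORi-HDL arrays, against 5.79, 6.29 and 6.21 on untreated arrays. It was lower on mTORi-HDL 2 and 3, at -0.65 ± 0.24 (SE, limma unadjusted p = 0.0334, adjusted p = 0.657), and mTORi-HDL 1 lay inside the untreated range. Cox7b was at 0.47 over 6 arrays and 0.12 without mTORi-HDL 1, and its second probe set at -0.33 and -0.18. Cox7a2l, which links complexes III and IV into supercomplexes, was higher without overlap, with 7.66, 7.74 and 7.94 on mTORi-HDL arrays and 7.52, 7.42 and 7.57 on untreated arrays.

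The tissue-restricted isoforms of complex IV differed among themselves. Cox7a1, the isoform of heart and skeletal muscle, read 4.01, 3.50 and 4.50 on mTORi-HDL arrays, against 4.72, 5.60 and 4.78 on untreated arrays. Its groups did not overlap, and its log2 fold change was the same in both fits, -1.03 ± 0.38 over 6 arrays (SE, limma unadjusted p = 0.0278, adjusted p = 0.890) and -1.03 ± 0.40 without mTORi-HDL 1 (unadjusted p = 0.0385, adjusted p = 0.686). Cox8b, another muscle isoform in the mouse, ran the opposite way, with 5.52, 4.81 and 4.38 on mTORi-HDL arrays and 4.07, 4.06 and 4.28 on untreated arrays. Its log2 fold change was 0.77 over 6 arrays and 0.46 without mTORi-HDL 1, on which it read highest. The third, Cox6a2, overlapped between groups at 0.16 over 6 arrays and -0.05 without mTORi-HDL 1. Cardiomyocyte markers, 15 of 16 higher over 6 arrays and 11 of 16 without mTORi-HDL 1, averaged 4.36 to 4.75 on mTORi-HDL arrays and 3.97 to 4.40 on untreated arrays. Tnnt2, a troponin of the heart, read 5.60, 7.30 and 6.24 on mTORi-HDL arrays and 5.83, 4.90 and 4.92 on untreated arrays. The part of heart muscle RNA in the muscle isoforms was not tested. Of the testis isoforms, Cox6b2 ranged from 3.88 to 5.80 on mTORi-HDL arrays and from 4.03 to 6.44 on untreated arrays, and Cox7b2 and Cox8c lay below 4 on every array. Cox4i2 and Ndufa4l2, isoforms raised by low oxygen, were at -0.14 and 0.35 over 6 arrays and at -0.18 and 0.54 without mTORi-HDL 1, with overlapping groups over 6 arrays.

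In ATP synthase the 5 genes of the catalytic head had a median of -0.72 over 6 arrays and -0.12 without mTORi-HDL 1, and those of the peripheral stalk 0.10 and 0.08, with the same signs under median centring, quantile normalization and cyclic loess. Atp5b, the catalytic beta subunit, read 8.13, 10.54 and 9.95 on mTORi-HDL arrays, against 10.82, 10.90 and 10.57 on untreated arrays. The groups were apart, and the log2 fold change of -1.22 ± 0.59 (SE) over 6 arrays became -0.52 ± 0.26 without mTORi-HDL 1 (limma, adjusted p = 0.780). Atp5a1, the alpha subunit, was at -0.97 and -0.53 and overlapped with the untreated arrays. The gamma, delta and epsilon subunits Atp5c1, Atp5d and Atp5e were at -0.37, -0.72 and -0.63 over 6 arrays and at -0.12, 0.02 and -0.06 without mTORi-HDL 1. The dimmer second probe set of Atp5d was at -0.66 over 6 arrays and stayed at -0.44 without mTORi-HDL 1. Atp5g1, Atp5g2 and Atp5g3, which encode the same c subunit of the proton-driven ring, were at 0.20, 0.00 and -0.40 over 6 arrays and at -0.09, 0.28 and 0.03 without mTORi-HDL 1.

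Atp5h, subunit d of the peripheral stalk, was higher without overlap, with 10.03, 10.49 and 9.81 on mTORi-HDL arrays and 9.64, 9.75 and 8.92 on untreated arrays, a log2 fold change of 0.67 ± 0.34 (SE). Its dimmer second probe set was at 0.37 over 6 arrays and 0.00 without mTORi-HDL 1. Atp5pb, subunit b of the stalk, was at -0.35 over 6 arrays and -0.40 without mTORi-HDL 1, and Atp5j and Atp5o, coupling factor 6 and the oligomycin sensitivity subunit, were at 0.16 and 0.04 over 6 arrays and at 0.15 and 0.02 without mTORi-HDL 1. Atp5j2, subunit f of the membrane part, was lower without overlap at -0.36 and -0.46 in the 2 fits, from dim levels of 3.52 to 3.95 on mTORi-HDL arrays and 3.97 to 4.21 on untreated arrays. Atp5k, Atp5l, Atp5md and Atp5mpl, which help ATP synthase form dimers, lay between -0.20 and 0.05 over 6 arrays and between -0.22 and 0.01 without mTORi-HDL 1.

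On mTORi-HDL 1 the subunits of 1 complex did not shift together. That array lay more than 1 below the untreated mean for 23 of 83 members, where mTORi-HDL 2 did so for 2 and mTORi-HDL 3 for 1, and it was the lowest of all 6 arrays for 31 members and the highest for 18. Over all genes mTORi-HDL 1 lay more than 1 below for 16.8%, was lowest for 23.4% and highest for 45.2%, and over the brightest 25% these shares were 54.9%, 66.3% and 10.4%, so the members' 27.7%, 37.3% and 21.7% lay between those of the 2 sets. Its median deviation was -1.86 in the F1 head of ATP synthase, -1.20 in the quinone-reducing module of complex I and -1.61 in the 2 core proteins of complex III. It was 0.14 in the peripheral stalk, -0.11 in the membrane arm of complex I, 0.06 in the small subunits of complex III and 0.03 in the ubiquitous subunits of complex IV. Across the 83 members the deviation on mTORi-HDL 1 correlated with the gene's untreated signal at r = -0.17 and with the logarithm of its gene span at -0.21, where the values over 21994 genes were -0.65 and -0.19, and those over the brightest 25% of genes -0.30 and -0.32. These are correlations across genes on 1 array, which share its labelling and hybridisation, and they carry no p. The untreated mean enters both the deviation and the untreated signal. On mTORi-HDL 2 and 3 the correlation with that signal was 0.05 and -0.06 over the members, and -0.05 and -0.09 over the 21994 genes. Without mTORi-HDL 1 the same role groups lay between -0.26 in the membrane arm and 0.08 in the peripheral stalk.

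**Figure D4:**
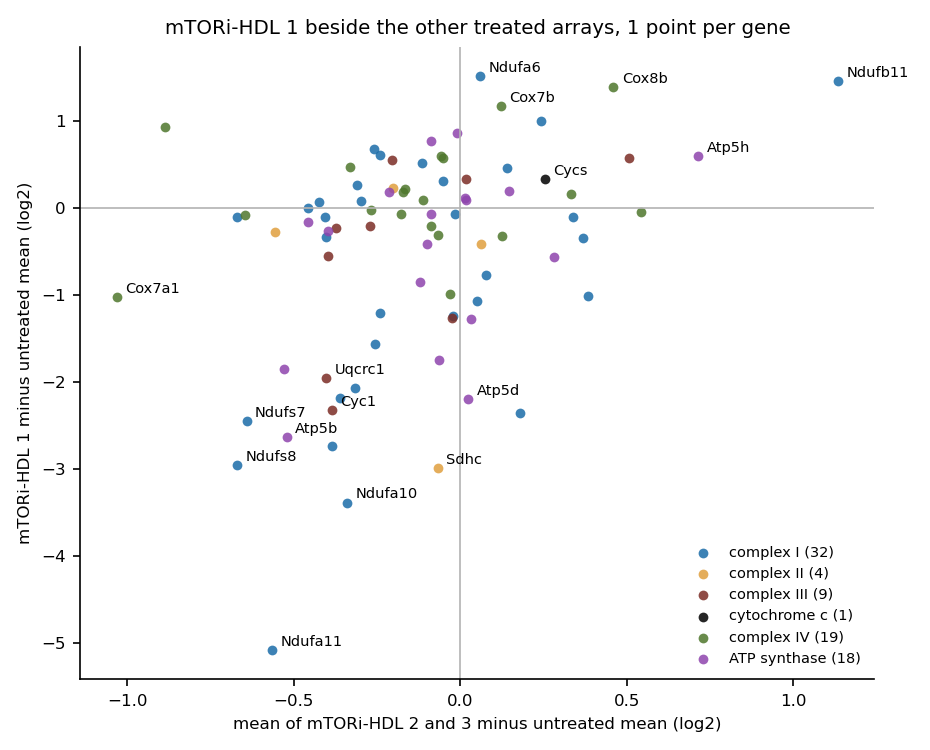
Deviation from the untreated mean (log2) on mTORi-HDL 1 (vertical) against the mean deviation on mTORi-HDL 2 and 3 (horizontal) for each of the 83 genes, coloured by complex. The vertical range is several times the horizontal one, and Ndufa11, Sdhc and Atp5d lie far below 0 on mTORi-HDL 1 at horizontal values of -0.57, -0.07 and 0.02.

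Factors that build and feed the chain were read from lists that share no gene with the 83. No gene of these lists passed an adjusted p of 0.05 in limma's fits. Of 54 assembly factors measured out of 59 listed, 6 were lower and 1 higher at an unadjusted p under 0.05 over 6 arrays, against 3.07% and 1.57% of all genes, and their median was -0.23. When mTORi-HDL 1 was left out, 5 were lower and 1 higher by that threshold, against 3.51% and 3.47%, and the median was -0.18. For complex I, 17 factors were measured: 12 were lower over 6 arrays (median -0.34) and 13 when mTORi-HDL 1 was left out (median -0.33), and the median stayed below 0 under median centring, quantile normalization and cyclic loess. Sdhaf2, which attaches the flavin to Sdha, read 5.39, 5.42 and 6.02 on mTORi-HDL arrays, against 7.03, 7.93 and 6.83 on untreated arrays. Its groups did not overlap and its log2 fold change was -1.65 ± 0.37 over 6 arrays (SE, limma adjusted p = 0.696) and -1.54 ± 0.38 without mTORi-HDL 1 (adjusted p = 0.411). Sdhaf4, which also acts on Sdha, was at -1.62 over 6 arrays and -1.38 without mTORi-HDL 1, with overlapping groups.

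Among the 22 measured factors of complex IV, 4 were lower and 1 higher at an unadjusted p under 0.05 over 6 arrays, against 3.07% and 1.57% of all genes, and the same counts were found without mTORi-HDL 1, against 3.51% and 3.47%. Their median of -0.19 over 6 arrays had no settled sign: it was 0.18 after cyclic loess and 0.06 without mTORi-HDL 1, when 10 of 22 were lower. Pet100, needed for complex IV assembly, read 3.61, 4.93 and 5.02 on mTORi-HDL arrays, against 5.94, 6.49 and 5.85 on untreated arrays. It was below every untreated value on all 3 treated arrays, at -1.57 over 6 arrays and -1.12 without mTORi-HDL 1. Cmc2, Coa3 and Taco1 were at -1.46, -1.17 and -0.89 over 6 arrays and at -1.17, -0.68 and -0.80 without mTORi-HDL 1, so Coa3 rested in part on that array, and Taco1 is known to activate translation of a mitochondrially encoded complex IV subunit. Coa6 and Sco1, which deliver copper to complex IV, were at 1.02 and 0.33 over 6 arrays and at 0.61 and 0.97 without mTORi-HDL 1. The 6 factors of complex III had a median of 0.03 over 6 arrays and the 5 of ATP synthase a median of -0.44 (0.29 and -0.35 after cyclic loess), which became -0.02 and -0.22 without mTORi-HDL 1.

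The 8 genes of electron donors to coenzyme Q other than complexes I and II had a median of -0.05 over 6 arrays (0.04 after quantile normalization), with 5 lower and 3 higher, and of -0.15 without mTORi-HDL 1, with 6 lower and 2 higher. At an unadjusted p under 0.05, 2 of the 8 were lower and 0 higher in each fit, beside the shares of all genes given above. Etfb, a subunit of the flavoprotein that collects electrons from fatty acid oxidation, read 5.06, 6.59 and 5.68 on mTORi-HDL arrays, against 6.87, 7.32 and 7.59 on untreated arrays. Etfdh, which passes those electrons to coenzyme Q, read 3.61, 5.62 and 6.09 on mTORi-HDL arrays, against 6.78, 6.42 and 6.67 on untreated arrays. Both were below every untreated value on all treated arrays, at -1.48 and -1.52 over 6 arrays and -1.13 and -0.77 without mTORi-HDL 1 (limma, adjusted p = 0.890 for both over 6 arrays, and 0.532 and 0.554). The third gene of this step, Etfa, was at -0.09 over 6 arrays and -0.16 without mTORi-HDL 1. Of 12 coenzyme Q synthesis genes measured, 0 were lower and 1, Coq6, was higher at an unadjusted p under 0.05, only without mTORi-HDL 1, at 0.89, where 3.51% of all genes were lower and 3.47% higher by that threshold.

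Carriers for ATP, phosphate and protons had medians of 0.01 over 6 arrays and -0.11 without mTORi-HDL 1 over 10 genes. Vdac3, an outer membrane channel, was at -1.24 on mTORi-HDL 2 and 3 and above all untreated arrays on mTORi-HDL 1. Regulators of mitochondrial gene expression, 19 measured, had a median of -0.24 over 6 arrays, which cyclic loess turned to 0.15, and 0.07 without mTORi-HDL 1. Tfb1m, which methylates mitochondrial ribosomal RNA, was at -0.89 and -1.06, with 4.96, 4.97 and 3.92 on mTORi-HDL arrays and 5.15, 5.60 and 5.75 on untreated arrays. Tefm, the mitochondrial transcription elongation factor, was at 1.11 and 1.46, and mTORi-HDL 3 stood apart: it read 6.34, against 4.28 and 4.31 on mTORi-HDL 1 and 2 and 3.54 to 4.05 on untreated arrays.

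**Figure D5:**
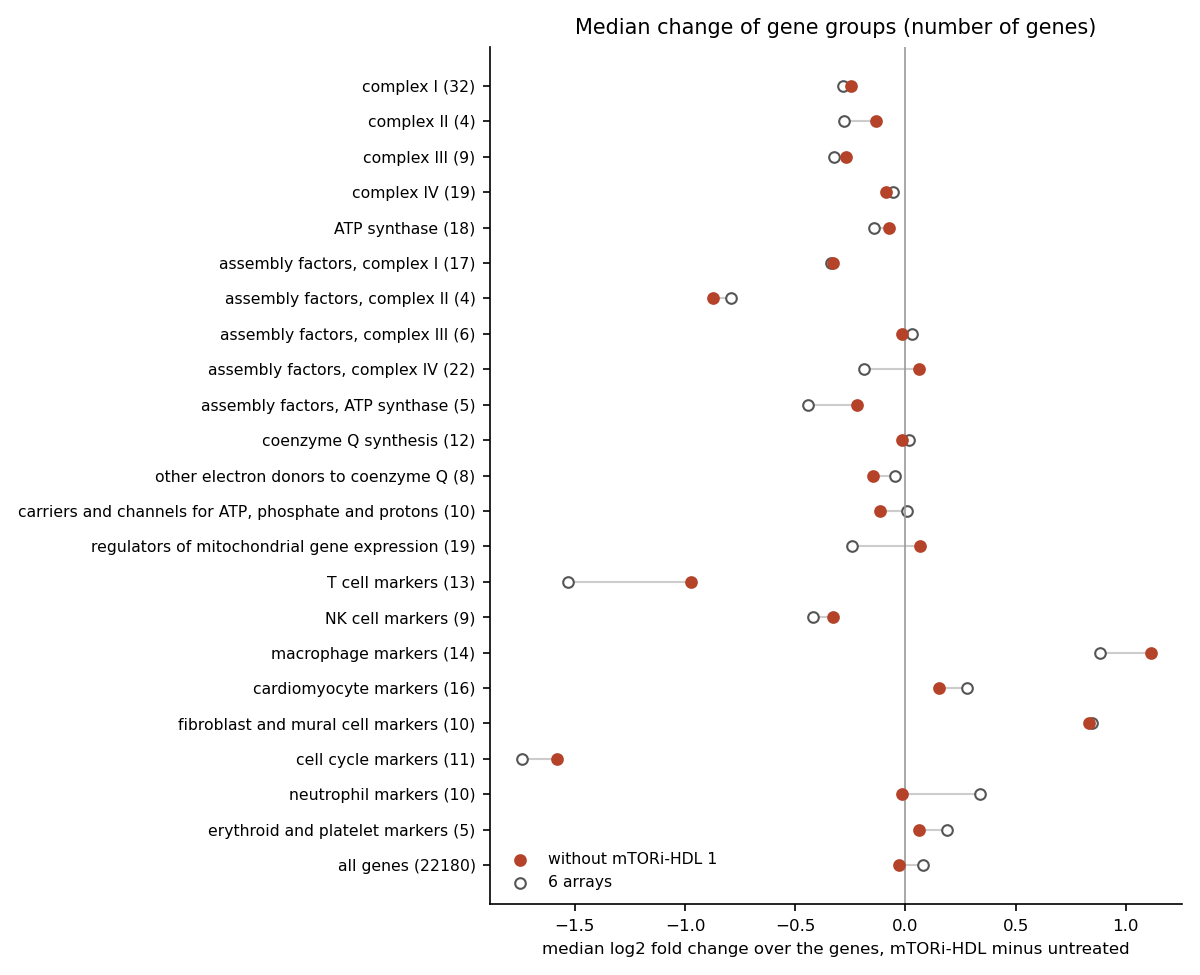
Median log2 fold change (mTORi-HDL minus untreated) of the complexes, of related pathway lists and of cell type marker lists, with the number of genes. Filled points leave out mTORi-HDL 1 and open points use 6 arrays, on which cyclic loess turns the 5 complexes above 0. Without mTORi-HDL 1 the complexes lie within 0.27 of 0, closer than the T cell, macrophage, fibroblast and cell cycle lists at -0.97, 1.11, 0.83 and -1.58. The NK cell list lies at -0.33. The cardiomyocyte, neutrophil, and erythroid and platelet lists, at 0.15, -0.02 and 0.06, lie as close to 0 as the complexes.

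Promoters of respiratory chain genes are known for sites of NRF1, of the ETS family (which includes GABPA) and of YY1. Windows of 300 bases around the gene starts, from RefSeq (GRCm38.p6), were searched for them on both strands. Of the 83 members 66 had a window. The NRF1 site was searched as GCGCA directly followed by TGCGC, and in a looser form with any base N in place of that A, which includes the first. ETS was searched as CCGGAAG and YY1 as AAGATGGC. The strict NRF1 form was found for 7.58% of members and 1.07% of all 27025 genes in the table, and the looser form for 22.7% and 5.19%. CCGGAAG was found for 25.8% of members and 9.93% of all genes, and AAGATGGC for 13.6% and 3.19%. These are matches of letters, not measured binding. By complex, AAGATGGC was found for 6 of 29 genes of complex I, 3 of 15 of ATP synthase and 0 of 14 of complex IV, and the looser NRF1 form for 5, 6 and 1 of them.

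The windows of 4 genes described above are printed for comparison, each on the strand of the gene, with the motifs in capitals. Ndufs7 (chr10:80249199-80249498, plus strand) and Cox7a1 (chr7:30183921-30184220, plus strand) are the 2 members with an unadjusted p under 0.05 in both fits, the first with a YY1 match just after the start and the second with no match. Sdhb (chr4:140961021-140961320, plus strand), lower without overlap, has an ETS match, and Uqcrc1 (chr9:108936398-108936697, plus strand) shows both NRF1 forms.
Ndufs7: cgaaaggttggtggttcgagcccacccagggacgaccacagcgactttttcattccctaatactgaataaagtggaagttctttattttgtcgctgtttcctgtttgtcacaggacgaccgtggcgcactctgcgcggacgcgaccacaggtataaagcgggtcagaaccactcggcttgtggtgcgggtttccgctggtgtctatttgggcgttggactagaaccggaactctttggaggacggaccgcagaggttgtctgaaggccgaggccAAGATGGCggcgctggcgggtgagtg
Cox7a1: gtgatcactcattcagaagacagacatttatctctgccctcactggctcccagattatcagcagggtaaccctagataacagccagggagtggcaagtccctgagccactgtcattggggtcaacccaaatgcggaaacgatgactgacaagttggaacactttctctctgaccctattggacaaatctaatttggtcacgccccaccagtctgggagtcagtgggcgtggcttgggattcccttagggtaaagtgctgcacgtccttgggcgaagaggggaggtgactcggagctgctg
Sdhb: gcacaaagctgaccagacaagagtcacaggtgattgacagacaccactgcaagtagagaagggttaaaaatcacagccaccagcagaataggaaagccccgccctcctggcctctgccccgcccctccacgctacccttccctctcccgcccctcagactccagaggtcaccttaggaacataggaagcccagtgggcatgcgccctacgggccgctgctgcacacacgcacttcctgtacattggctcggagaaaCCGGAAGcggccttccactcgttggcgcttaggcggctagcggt
Uqcrc1: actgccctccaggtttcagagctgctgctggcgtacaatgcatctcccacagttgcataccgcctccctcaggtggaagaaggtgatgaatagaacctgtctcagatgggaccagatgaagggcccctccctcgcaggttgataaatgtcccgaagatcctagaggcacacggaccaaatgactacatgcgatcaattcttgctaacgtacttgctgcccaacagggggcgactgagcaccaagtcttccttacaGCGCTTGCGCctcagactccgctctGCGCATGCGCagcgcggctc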

How the data were processed

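Cells sorted as macrophages in 6 samples, 3 mTORi-HDL and 3 untreated, were measured on 1 array each. The deposited values are log2 expression levels of 41345 probe sets, made by the authors in Affymetrix Expression Console by the RMA method, per the submitters' processing notes, with versions and probe-set filters not given in the sources used here. Probe sets with 1 symbol (23521) were kept, and 1814 with several symbols and 16010 with none were left out. The brightest probe set stood for each gene, and no further normalization or filter was applied. The deposited log2 values of 22180 genes entered lmFit and eBayes of limma 3.58.1 under R 4.3.3 (two-sided, Benjamini-Hochberg over all genes), with 4 residual degrees of freedom over 6 arrays and 3 without mTORi-HDL 1. The fit was tested on simulated data with independent noise, no array like mTORi-HDL 1 and planted changes larger than those of most members. That test therefore does not cover such an array or small changes. Arrays have no read depth, so their number limits the precision.

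The members, complexes and lists were chosen with earlier results of these data known. Single genes are named by role, by the lowest and highest fold changes of each complex, or by an unadjusted p under 0.05, and Ndufa5, Ndufa9, Ndufa10, Ndufa11, Ndufa13, Ndufb8, Uqcrh and other members outside these rules were named after their values were seen. No pairing of the replicate numbers is stated, so they were not taken as pairs. Deviations from the group means correlated at 0.14, 0.13 and -0.02 for same-numbered arrays, and between -0.16 and 0.13 for the others. These values do not decide whether the arrays were paired. Alternatives were median centring, quantile normalization, cyclic loess, filters at the 25th, 50th and 75th percentile, trend and robust moderation, array weights, a replicate block, averaging the probe sets of each gene, other memberships, a threshold of 0.1 and each array left out. Those that combine leaving out mTORi-HDL 1 with another choice were added after seeing the data. All 83 members matched RefSeq by gene identifier.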

Additional observations from a re-analysis of the deposited data

How the results depend on the processing

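The replicate number as a block changed no call and left 56 of 83 members lower over 6 arrays, and 60 without mTORi-HDL 1. Under every alternative run, with each array left out or not, 0 members passed the adjusted threshold of 0.05, or 0.1. Counts at an unadjusted limma p under 0.05 ranged from 0 to 7 lower and 0 to 3 higher members among the alternatives over 6 arrays. In the main fit 3.07% of all genes were lower and 1.57% higher by that threshold. The shares of all genes under each alternative are not given here, so these ranges have no background of their own. Median centring gave medians of -0.22, -0.36 and -0.40 for all members, complex I and complex III. It turned the sign of Atp5g2, to -0.070. Quantile normalization gave medians of -0.0068, 0.0019, 0.14 and -0.0097 for all members, complex I, complex II and complex III. It turned the sign of Cox5b, Cox6b1, Cox6b2, Cox7c, Cox8a, Ndufab1, Ndufb6, Ndufv1, Sdha, Sdhd and Uqcrq, to 0.063, 0.087, 0.17, 0.0028, 0.029, -0.0099, 0.0094, 0.33, 0.28, 0.37 and 0.037. Cyclic loess gave medians of 0.068, 0.17, 0.22, 0.31, 0.21, 0.23 and 0.58 for ATP synthase, all members, complex I, complex II, complex III, complex IV and cytochrome c, with 30 members lower. It turned the sign of Atp5g3, Cox5b, Cox6a1, Cox6b1, Cox7a2, Cox8a, Ndufa4, Ndufab1, Ndufb6, Ndufs4, Ndufv1, Ndufv2, Sdha, Sdhb, Sdhd, Uqcrc2 and Uqcrq, to 0.12, 0.35, 0.096, 0.36, 0.28, 0.37, 0.31, -0.017, 0.075, 0.23, 0.52, 0.13, 0.55, 0.16, 0.45, 0.17 and 0.28. Array weights, which gave mTORi-HDL 1 a weight of 0.149, called 1 gene, H2bc12, which is no member, and turned the sign of Atp5g1, Atp5g3, Cox5a, Cox6b1, Ndufa1, Ndufs4, Ndufv1 and Sdhd, to -0.068, 0.013, -0.058, 0.096, -0.066, 0.083, 0.28 and 0.20. The filter at the 75th percentile moved the median of all members to -0.20. Averaging the probe sets of each gene moved Cycs to 0.44 and turned Atp5g2 to -0.016. With each array left out in turn, the medians ranged from -0.34 to -0.19 in complex I, -0.64 to -0.14 in complex II, -0.47 to -0.23 in complex III and -0.21 to -0.11 in all members. With mTORi-HDL 1 and each further array left out, they ranged from -0.22 to -0.14 in complex I, -0.59 to 0.030 in complex II, 0.11 to 0.40 in cytochrome c and -0.19 to -0.047 in complex IV. Leaving out a second treated array leaves 1 array in that group, assumed to vary like the untreated ones. These fold changes crossed 0 when single arrays were left out: Ndufab1 -0.18 to 0.37, Ndufs4 -0.46 to 0.077, Ndufv1 -0.50 to 0.38, Ndufa1 -0.11 to 0.21, Sdha -0.20 to 0.033, Sdhd -0.76 to 0.40, Cox6a2 -0.050 to 0.42, Ndufa4l2 -0.16 to 0.65, Cox6b2 -0.89 to 0.50, Cox7b2 -0.33 to 0.14 and Cox5a -0.057 to 0.37. The same held for Cox6b1 -0.13 to 0.13, Cox7a2 -0.20 to 0.048, Cox8a -0.17 to 0.10, Ndufa4 -0.21 to 0.22, Atp5g1 -0.087 to 0.43, Atp5g2 -0.25 to 0.28, Atp5g3 -0.64 to 0.031, Atp5d -1.10 to 0.025, Atp5j -0.0023 to 0.32 and Atp5c1-ps -0.010 to 0.47. The cause of these changes was not tested. With 3 arrays against 3, 1 of them compressed, and no read depth, differences of the size seen in most members could not be separated from the spread between arrays, and values near 0 have no settled direction. A p that misses the threshold does not show that a gene is unchanged.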
